A study of Mus musculus with 5 samples.

Results

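Cytokine mRNA decay factors are RNA-binding proteins and nucleases that remove short-lived inflammatory transcripts. They were read here as 8 genes, chosen by symbol: the ZFP36 family (Zfp36, Zfp36l1, Zfp36l2), the Regnases (Zc3h12a, Zc3h12c, Zc3h12d) and the Roquins (Rc3h1, Rc3h2). All 8 were found among the 27726 genes that the 5 count matrices share. Group 2 innate lymphoid cells (ILC2s), tissue lymphocytes that secrete type 2 cytokines such as IL-13, had been sorted from mouse lungs as Lin- ST2+ CD127+ Thy1.2+ CD45+ cells and measured one by one with the 10x Genomics 3' assay.

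All cells came from wild-type C57BL/6 mice, female and 4 to 8 weeks old per the study's methods, with 5 mice pooled for each group. The naïve library held freshly isolated ILC2s of mice without a tumour. The ta-non-activated libraries (ta, tumour-associated) held freshly isolated lung ILC2s of mice that carried TC1 tumour cells under the skin of the flank, taken at week 2 and at week 3. The ta-activated libraries came from tumour-bearing mice of the same weeks and were cultured for a week with IL-2, IL-33 and TSLP. ILC2s were thus exposed to a tumour at a distance, and culture and activation cannot be told apart in this design. After barcodes with fewer than 200 genes or with 5% or more mitochondrial counts were left out, there were 6389 naïve cells, 1823 (week 2) and 1601 (week 3) ta-non-activated cells, and 2895 and 3822 ta-activated cells. The kept cells held between 9394957 and 61830293 counts of unique molecular identifiers (UMIs) per library, and the median cell had between 4396 and 16090 UMIs.

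ZFP36 proteins (tristetraprolin, encoded by Zfp36, and its relatives encoded by Zfp36l1 and Zfp36l2) bind AU-rich elements, repeats of the pentamer ATTTA in the 3' untranslated region (UTR) of an mRNA, and recruit the CCR4-NOT complex that shortens the poly(A) tail. Regnases are endoribonucleases that cut stem-loops in 3' UTRs. Regnase-1 (Zc3h12a) is itself destroyed by the protease MALT1 after receptor signalling. Roquins recognise similar stem-loops and hand the mRNA to the deadenylation and decapping machinery. Il13, Il9 and Csf2 (the gene of GM-CSF), against which the 8 genes were read, are cytokine mRNAs of activated ILC2s.

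ATTTA pentamers stood in the 3' UTRs of the 3 cytokines and of all 8 decay factors, but not always as repeats. Within 30 bases, at least 2 pentamers were found in the 3 cytokine, the 3 ZFP36 family and the 2 Roquin mRNAs, and no more than 1 in the Regnase mRNAs. The sequences below show for 2 cytokines and 2 members the 30 bases with the most ATTTA pentamers, in capitals, read 5' to 3' on the mRNA strand of GENCODE M21 transcripts (GRCm38). They lie on the minus strand at chr11:54247325-54247354 (Csf2), chr13:56479326-56479355 (Il9), chr7:28376958-28376987 (Zfp36) and chr17:84184918-84184947 (Zfp36l2).
Csf2: taaatATTTATTTATTTATTTATTTAtttt
Il9: tgctATTTAttctATTTAttgaATTTAcaa
Zfp36: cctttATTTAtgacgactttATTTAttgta
Zfp36l2: gaaaaactATTTAacttATTTAttatcttg

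The Csf2 3' UTR of 317 bases held 9 pentamers, some overlapping, and 4 copies of the nonamer TTATTTATT. Il9 held 3 pentamers in 86 bases without the nonamer, and Il13 held 3 pentamers and 1 nonamer in 741 bases. Only the mRNA strand was searched. All 3 ZFP36 family mRNAs carried 1 nonamer each, with 3 pentamers (Zfp36, 774 bases), 9 (Zfp36l1, 1835 bases) and 5 (Zfp36l2, 1822 bases). Rc3h1 and Rc3h2 also carried 1 nonamer each, in UTRs of 7181 and 5160 bases, and the 3 Regnase mRNAs carried none. Across 20718 genes with an annotated 3' UTR, 7.13% held the nonamer and 62.8% the pentamer, and the median UTR was 849 bases. Longer UTRs hold the nonamer more often. Among genes whose UTR length lay within 20% of the member's, the share with the nonamer was 4.17% for Zfp36, 9.94% for Zfp36l1, 9.91% for Zfp36l2, 28.0% for Rc3h1 and 22.6% for Rc3h2, against 4.16% for Il13 and 2.39% for Csf2. Of the Regnases, Zc3h12a held 3 pentamers in 856 bases, Zc3h12c 14 in 4062 bases and Zc3h12d 2 in 2327 bases. Rc3h1 held 20 and Rc3h2 25. Of genes of similar UTR length, 22.8%, 11.2%, 81.9%, 21.3% and 1.73%, in that order, held at least as many. That share was 19.8% for Zfp36, 5.50% for Zfp36l1 and 29.2% for Zfp36l2. For Il13, Il9 and Csf2 it was 18.8%, 0.308% and 0.0556%. A match is a string of letters and not a measured binding site.

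Both ta-non-activated libraries stood apart, in different ways. In week 3, 967 of 1601 cells (60.4%) were T-lineage-marked, with UMIs of at least 3 T-lineage genes and more T-lineage than ILC2 marker UMIs. Only 536 cells (33.5%) were ILC2-marked, with UMIs of at least 2 ILC2 markers and more ILC2 than T-lineage marker UMIs. The shares of ILC2-marked cells in the other 4 libraries were 90.1% to 98.0%, and 188 week 3 cells lay within 2 UMIs of the boundary. In the library labelled week 2 ta-non-activated there was almost no mRNA of Fos, an early response transcription factor. Fos was at 0.692 CPM (UMIs per 1e6 UMIs), against 1151 CPM in naïve and 592 CPM in week 3 ta-non-activated cells, and at 1.95 and 1.42 CPM in the cultured libraries. All 15 of 15 immediate early and stress genes lay nearer to the cultured libraries than to the naïve one in week 2, while in ILC2-marked cells of week 3 all 15 lay nearer to naïve. On these genes the week 2 ta-non-activated library thus goes against its label as freshly isolated. It also differed from the week 2 cultured library, with 2.53-fold the Il13, 110-fold the Il9 and 23.9-fold the Csf2. The cause was not tested. The label is in doubt, it was kept as given, and each value below that sets week 2 ta-non-activated cells against naïve or cultured cells rests on it. Summed markers of other cells moved between the libraries too. Naïve cells had the highest endothelial (88.2 CPM, against 18.4 in week 2 ta-non-activated cells) and epithelial sums (285 against 20.9 CPM, of which the club cell gene Scgb1a1 made up 215 and 1.66 CPM). Mast cell markers summed to 29.2 CPM in naïve, 0 in week 2 and 82.3 CPM in week 3 ta-non-activated cells. Over the 5 libraries, myeloid sums ranged from 0.993 to 16.0 CPM, B cell sums from 5.03 to 23.3 CPM and NK/ILC1 sums from 1.41 to 24.7 CPM. Their part in the results, and that of doublets, which were not called, was not tested. Between 1 and 8 cell barcodes were shared by any pair of libraries.

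The ZFP36 family was abundant in naïve ILC2s and much lower in the week 2 ta-non-activated cells, whereas it was retained in ILC2-marked cells of week 3. Levels are given in CPM of the library, with exact Poisson 95% intervals in brackets. These intervals cover counting error only and not the spread between mice or libraries. Differences that involve the naïve library rest on 1 library and have no replicate check.

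Zfp36 stood at 394 CPM (388 to 401) in naïve cells, 6.05 CPM (5.24 to 6.95) in week 2 and 82.9 CPM (77.2 to 88.9) in week 3 ta-non-activated cells. The cultured libraries had 44.3 CPM (week 2) and 32.7 CPM (week 3). Naïve cells thus held 65.2-fold (56.7 to 75.3) the Zfp36 of week 2 ta-non-activated cells, and no neighbours in the order of the 5 libraries had overlapping intervals. Among ILC2-marked cells alone, the level was 335 CPM (308 to 365) in week 3 ta-non-activated cells and 403 CPM (396 to 410) in naïve cells.

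Zfp36l1 had 1476 CPM in naïve cells, 42.1 and 237 CPM in ta-non-activated cells of weeks 2 and 3, and 36.5 and 72.2 CPM in the ta-activated cells. Its naïve level was 35.1-fold (33.3 to 37.0) that of week 2 ta-non-activated cells, and the lowest level was that of the week 2 cultured cells. In ILC2-marked cells the week 3 ta-non-activated level was 927 CPM. Zfp36l2 had 1341 CPM in naïve cells, 59.4 and 708 CPM in ta-non-activated cells, and 124 and 127 CPM in ta-activated cells, the last pair with overlapping intervals. The naïve level was 22.6-fold (21.6 to 23.6) that of week 2 ta-non-activated cells. Its level in ILC2-marked cells of week 3 was 1126 CPM.

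**Figure D1:**
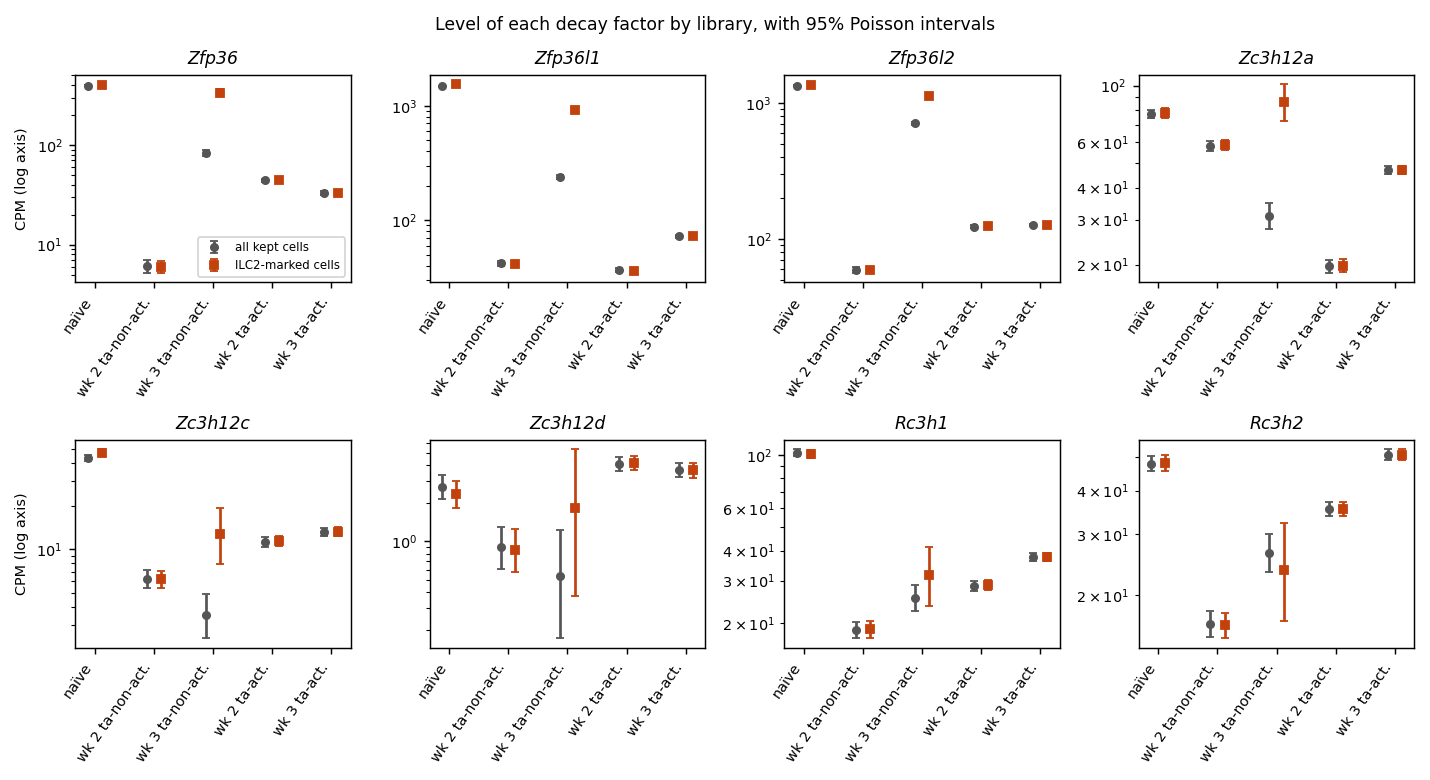
Level of each of the 8 decay factors (CPM, log axis, different range in each panel) in the 5 libraries, for all kept cells (grey circles) and ILC2-marked cells (orange squares), with exact Poisson 95% intervals. The ZFP36 genes were lowest in week 2 ta-non-activated or week 2 ta-activated cells, and the 2 cell sets part mainly in ta-non-activated cells of week 3.

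Of the 8 members, the 3 ZFP36 genes differed most between the 2 ta-non-activated libraries. Within ILC2-marked cells, week 3 held 55.9-fold (47.4 to 66.2) the Zfp36 of week 2, 22.4-fold (20.8 to 24.1) the Zfp36l1 and 19.1-fold (17.9 to 20.3) the Zfp36l2. Of the 8 members, 5 were at least 2-fold higher in week 3 than in week 2 of these cells, against 21.5% of the 12846 genes with at least 50 UMIs over the 5 libraries. Zc3h12c (2.05-fold, 1.24 to 3.22) and Zc3h12d (2.11-fold, 0.411 to 6.84, on 3 UMIs in week 3) were the other two, and Zc3h12a, Rc3h1 and Rc3h2 lay under 2-fold. In the same cells Il13 differed more, and in the other direction, with 81.7-fold as much in week 2 as in week 3. Immediate early genes moved in the same direction as the ZFP36 genes, and their part in the difference was not tested.

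The Regnases varied less. Zc3h12a was at 77.6 CPM in naïve cells, 57.9 and 31.1 CPM in ta-non-activated cells and 19.7 and 46.7 CPM in ta-activated cells. Naïve cells held 1.34-fold (1.26 to 1.42) the week 2 ta-non-activated level, the smallest such ratio of the 8 genes. In ILC2-marked cells of week 3 it reached 86.1 CPM (72.5 to 102), which overlapped the naïve interval. Zc3h12c (Regnase-3) had 43.2 CPM in naïve cells, 6.26 and 3.51 CPM in ta-non-activated cells and 11.3 and 13.2 CPM in ta-activated cells. Zc3h12d (Regnase-4) was scarce, at 2.69 CPM in naïve cells, 0.903 and 0.532 CPM (30 and 5 UMIs) in ta-non-activated cells and 4.10 and 3.66 CPM in ta-activated cells.

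The Roquins were present in each library. Rc3h1 had 102 CPM in naïve cells, 18.7 and 25.4 CPM in ta-non-activated cells and 28.6 and 37.7 CPM in ta-activated cells. Rc3h2 had 47.9 CPM in naïve cells, 16.5 and 26.4 CPM in ta-non-activated cells and 35.4 and 50.8 CPM in ta-activated cells. Naïve Rc3h2 and week 3 ta-activated Rc3h2 had overlapping intervals, so the order of the top pair was not resolved at this depth.

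Against week 2 ta-non-activated cells, 7 of the 8 members were at least 2-fold higher in naïve cells and none lower, with a median log2 ratio of 2.62. Of 13105 genes, 39.1% were at least 2-fold higher and 20.1% lower, and the median was 0.44. Part of that background followed gene structure. The Cell Ranger version in the matrix header was 6.0.0 for the naïve library and 3.0.2 for the rest, and the median log2 ratio of naïve over week 2 ta-non-activated cells was -0.80 in genes with under 5 kb of introns and 1.78 in genes with 50 kb or more. Intron bases were those of a gene that lie in no annotated exon of any of its transcripts. Zfp36 has 0, Zfp36l2 has 487 and Zfp36l1 has 2270, so all 3 fall in the short class. The part of the processing difference in their ratios was not tested. Zc3h12c (50384 intron bases) and Rc3h1 (57253) fall in the long class, so their naïve levels of 6.89-fold and 5.46-fold over week 2 are uncertain. Against week 3 ta-non-activated cells 6 of 8 members were at least 2-fold higher in naïve cells (32.7% of all genes), and in ILC2-marked cells 3 of 8 were (34.5% of genes).

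The library with the least ZFP36 family mRNA held the most cytokine mRNA. Il13 was at 55.6 CPM in naïve cells, 8861 and 19.6 CPM in ta-non-activated cells of weeks 2 and 3, and 3501 and 4318 CPM in ta-activated cells. Il9 had 3 UMIs in naïve cells (0.0926 CPM), 12576 CPM in week 2 and 0 of 9394957 UMIs in week 3 ta-non-activated cells, which allows up to 0.319 CPM, and 115 and 342 CPM in ta-activated cells. Csf2 had 356 CPM in naïve cells, 1432 and 31.6 CPM in ta-non-activated cells, and 60.0 and 183 CPM in ta-activated cells. The 3 ZFP36 genes summed to 3211 CPM in naïve cells, 107 and 1028 CPM in ta-non-activated cells, and 205 and 232 CPM in ta-activated cells. The week 2 ta-non-activated library thus combined the lowest ZFP36 sum with the highest level of each cytokine. The other libraries did not keep to that opposite order. Both cultured libraries had less Csf2 and less ZFP36 family mRNA than naïve cells, and week 3 ta-non-activated cells had less ZFP36 family mRNA, less Il13 and less Csf2 than naïve cells. In ILC2-marked cells alone, Il13 was at 110 CPM in week 3 ta-non-activated and 60.3 CPM in naïve cells. The ZFP36 sum and all 3 cytokines were higher in the week 3 than in the week 2 cultured library. In naïve cells there were 57.7 ZFP36 family UMIs for each Il13 UMI, and in week 2 ta-non-activated cells there were 82.4 Il13 UMIs for each ZFP36 family UMI. With 5 libraries no correlation was computed between these levels.

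**Figure D2:**
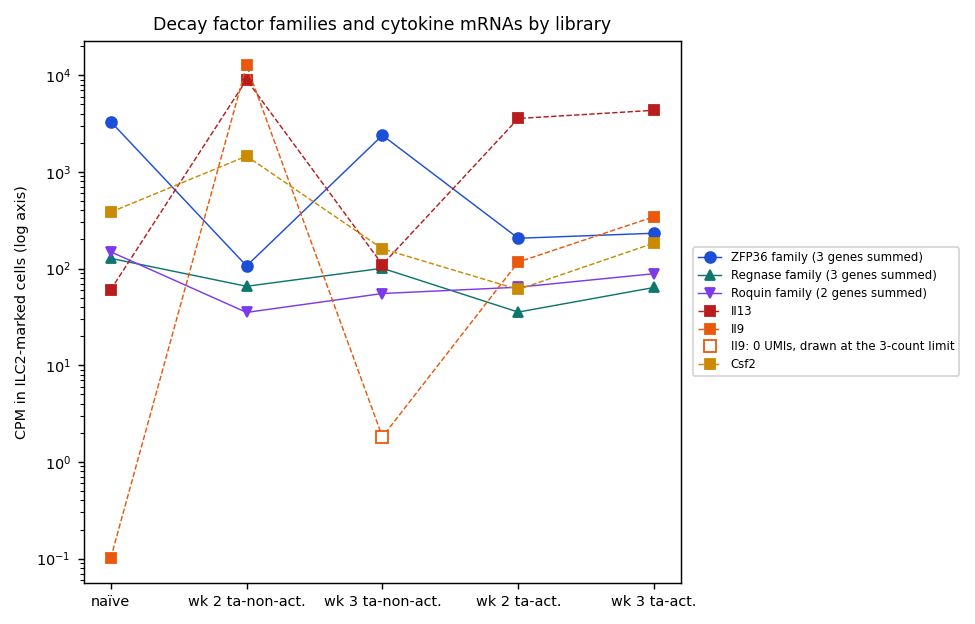
Summed level of the ZFP36 (blue circles), Regnase (green upward triangles) and Roquin (purple downward triangles) genes and the level of Il13, Il9 and Csf2 (squares) in ILC2-marked cells of the 5 libraries, in CPM on a log axis. Lines only join values of the same gene or family, and the open square is a library with 0 Il9 UMIs drawn at the limit of 3 counts. The ZFP36 sum was lowest where Il13, Il9 and Csf2 were highest, in week 2 ta-non-activated cells.

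The share of cells with ZFP36 family mRNA followed the same order over the 5 libraries as the summed level. Each cell with at least 2000 UMIs was thinned at random to 2000 UMIs. At least 1 UMI of a ZFP36 family member was then found in 95.7% of naïve cells (exact binomial 95% interval 95.2 to 96.2), 20.1% of week 2 ta-non-activated cells (18.2 to 22.0), 80.9% of week 3 ta-non-activated cells (78.8 to 82.8), and 31.9% and 35.3% of the ta-activated cells. In ILC2-marked cells of week 3 the share was 93.9% (91.4 to 95.9). Zfp36 itself was found in 33.3% of naïve and 1.38% of week 2 ta-non-activated cells, and Zc3h12a in 14.0% and 11.8%. Il13 was found in 4.73% of naïve and 88.2% of week 2 ta-non-activated cells. Of the 32 T-lineage-marked cells of that week 2 library, 59.4% also had an Il13 UMI at the same depth. The part of free RNA or mixed droplets in that share was not tested. In week 3 the share in T-lineage-marked cells was 0.106%, and in ILC2-marked cells 5.86%.

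Within the ta-non-activated library of week 3, the decay factors differed between the marked classes, which had median depths of 2923 UMIs (ILC2-marked) and 5977 UMIs (T-lineage-marked). Zfp36 was at 335 CPM in ILC2-marked and 21.4 CPM in T-lineage-marked cells, a ratio of 15.7 (13.1 to 18.8). Zfp36l1 differed 11.6-fold (10.5 to 12.7), Zc3h12a 4.79-fold (3.76 to 6.11) and Zfp36l2 only 1.85-fold (1.75 to 1.95). The Roquins did not differ beyond counting error, with ratios of 1.30 (0.938 to 1.78) for Rc3h1 and 0.867 (0.599 to 1.23) for Rc3h2. These classes were compared after their values had been seen, and the cells of 1 library are not replicates.

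Activation in culture was the comparison with 2 libraries on each side, 2 ta-activated against 2 ta-non-activated, on summed counts. Each library is a pool, and the 2 libraries of a group are of different weeks. The p-values thus measure the spread between libraries, with the week in it, and not between mice. In the ta-non-activated pair this spread also holds the difference in cell mix given above. Over 12643 genes, edgeR's quasi-likelihood test called 0 genes at an adjusted p (Benjamini-Hochberg) under 0.05, or 0% of genes, 2120 genes had an unadjusted p under 0.05, and DESeq2 called 1033 genes, 7.99% of those it tested, none of them a member. No member was called by either tool. The ZFP36 genes had log2 fold changes of -0.18 ± 1.09 (SE) for Zfp36, -1.37 ± 0.83 for Zfp36l1 and -1.60 ± 1.06 for Zfp36l2, with edgeR adjusted p of 0.946, 0.440 and 0.477. Mean Zfp36 was 44.5 ± 54.4 CPM (SD, n = 2) in the ta-non-activated and 38.5 ± 8.17 CPM in the ta-activated libraries. For Zfp36l2 the means were 384 ± 459 and 125 ± 2.28 CPM. The spread between the 2 ta-non-activated libraries was thus as large as the mean.

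The remaining 5 members had smaller errors. Zc3h12d had a log2 fold change of 2.25 ± 0.60 (edgeR unadjusted p = 0.0147, adjusted p = 0.252), the lowest adjusted p of the 8, and was higher in both cultured libraries than in both fresh ones. Zc3h12c had 1.17 ± 0.50 (adjusted p = 0.328), Rc3h2 0.93 ± 0.36 (adjusted p = 0.300) and Rc3h1 0.50 ± 0.32 (adjusted p = 0.468) in edgeR's test. For these 3 genes, too, both cultured libraries lay above both fresh ones in all kept cells. For Rc3h1 the counting intervals of week 2 cultured (28.6 CPM) and week 3 fresh cells (25.4 CPM) overlapped, so its order was not resolved. The share of all genes with both cultured libraries above both fresh ones was not computed. In ILC2-marked cells that order no longer held for Zc3h12c, at 12.7 CPM fresh in week 3 against 11.5 CPM cultured in week 2. For Rc3h1 it did not hold either (31.5 against 28.7 CPM). The intervals of both pairs overlapped. Week 3 fresh Zc3h12d rested on 3 UMIs in these cells, at 1.82 CPM (0.375 to 5.32). That interval overlapped those of both cultured libraries. Zc3h12a had -0.58 ± 0.61 (edgeR adjusted p = 0.646). In all, 4 members had a positive and 4 a negative estimate, with a median of 0.16 against -0.02 for all genes. Il13, Il9 and Csf2 had -0.42 ± 2.11, -5.04 ± 3.60 and -2.84 ± 1.76, with edgeR adjusted p of 0.931, 0.505 and 0.451.

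The 2 weeks moved in opposite directions for several members. In week 2, Zfp36 was 7.32-fold (6.34 to 8.50) and Zfp36l2 2.08-fold (1.98 to 2.19) higher after activation, while Zc3h12a was at 0.340 (0.315 to 0.366) of its fresh level. In week 3, Zfp36 was at 0.395 (0.363 to 0.429) and Zfp36l2 at 0.179 (0.174 to 0.185) of the fresh level, and Zc3h12a was 1.50-fold higher. Among ILC2-marked cells of week 3, Zfp36 was at 0.0979 (0.0891 to 0.108) of the fresh level, Zfp36l1 was at 0.0777 and Zfp36l2 at 0.113, and Zc3h12a was at 0.543 (0.459 to 0.648). With all kept cells, 4 members were at least 2-fold higher (25.4% of genes) and 1 at least 2-fold lower (10% of genes) in week 2, and 2 were higher (24% of genes) and 3 lower (20.2% of genes) in week 3. In all kept cells, Zc3h12a alone of the 8 was at least 2-fold higher in week 3 than in week 2 ta-activated cells (2.38-fold, 2.22 to 2.55; 6.07% of genes). Zfp36l1 lay at that limit, 1.98-fold (1.88 to 2.08) higher in all kept cells and 2.00-fold (1.90 to 2.11) in ILC2-marked cells.

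**Figure D3:**
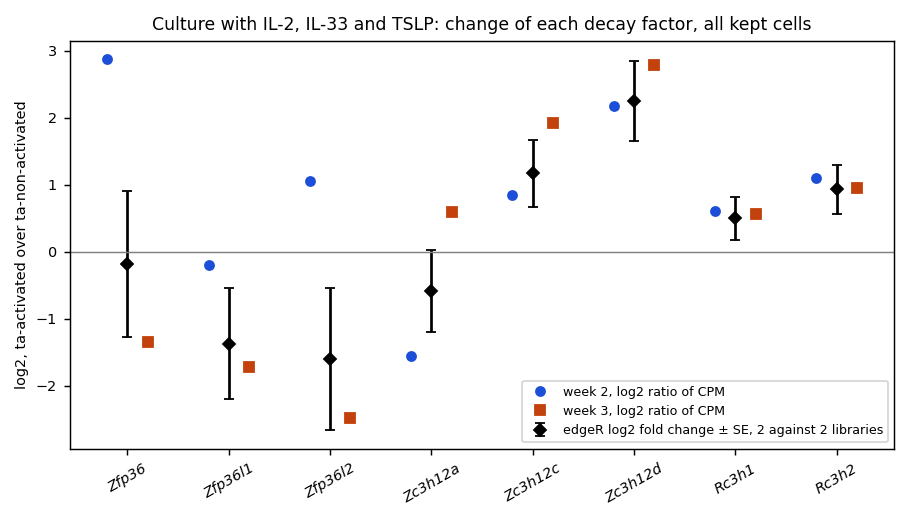
Change with activation for the 8 decay factors on the log2 scale, in all kept cells. Diamonds are edgeR estimates with their SE from 2 against 2 libraries, circles and squares are the log2 ratio of CPM within week 2 and within week 3. The 2 weeks lie on opposite sides of 0 for Zfp36, Zfp36l2 and Zc3h12a and on the same side for the other 5.

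Within a library, cells with and without a cytokine UMI were set side by side, using ILC2-marked cells thinned to 2000 UMIs with at least 20 cells on each side. A cytokine UMI does not by itself mark a cell that makes the cytokine. In week 2 ta-non-activated cells, UMIs of Il13, Il9 and Csf2 were found in 89.0%, 38.3% and 71.3% of ILC2-marked cells, and also in 59.4%, 31.2% and 21.9% of the 32 T-lineage-marked cells. The exact binomial intervals of the Il9 shares overlapped, so the share with Il9 was not told apart between these classes. Whether the T-lineage-marked cells make these cytokines was not tested. In naïve cells 22.6% of ILC2-marked and 5.87% of T-lineage-marked cells had a Csf2 UMI. The part of free RNA or mixed droplets in the splits was not tested. Zfp36l2 was lower in Il13-positive than in Il13-negative cells in 5 of 5 libraries, with the interval below 1 in 4. Its ratios were 0.827 (0.764 to 0.894) in naïve cells, 0.651 (0.452 to 0.963) and 0.939 (0.711 to 1.22) in ta-non-activated cells of weeks 2 and 3, and 0.720 (0.617 to 0.843) and 0.606 (0.521 to 0.709) in ta-activated cells. Zc3h12a leaned the other way, higher in Il13-positive cells in 5 of 5 libraries, with the interval above 1 in 2. These were the week 2 libraries, with ratios of 2.02 (1.16 to 3.85) in ta-non-activated and 1.92 (1.15 to 3.37) in ta-activated cells. With Csf2 as the split, Zc3h12a was higher in Csf2-positive cells in 5 of 5 libraries, from 1.20 (1.03 to 1.40) in naïve to 2.82 (1.58 to 4.75) in week 2 ta-activated cells, with the interval above 1 in 3. Zfp36l2 was lower in Csf2-positive cells in 5 of 5 libraries, with the interval below 1 in 2. These directions rested on the settings in places: without thinning, the Zc3h12a ratio was 0.837 for Il13 in week 3 ta-activated and 0.888 for Csf2 in week 3 ta-non-activated cells, and the Zfp36l2 ratio for Csf2 was 1.09 in week 2 ta-activated cells. With all kept cells in place of ILC2-marked cells, the Zfp36l2 ratios in week 3 ta-non-activated cells were 1.23 (Il13) and 1.24 (Csf2).

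Zfp36 and Zfp36l1 had no common direction against Il13. Zfp36 was lower in Il13-positive naïve cells (0.824, 0.707 to 0.954) and higher in Il13-positive week 2 ta-activated cells (1.48, 1.10 to 2.03). With Csf2 as the split, Zfp36 was higher in positive cells in 3 of 5 libraries, each with the interval above 1. These were naïve (1.09, 1.02 to 1.17), week 3 ta-non-activated (1.64, 1.23 to 2.16) and week 2 ta-activated cells (2.26, 1.53 to 3.24). In week 2 ta-non-activated (0.603, 0.275 to 1.37) and week 3 ta-activated cells (0.828, 0.607 to 1.11) it was lower, with 1 inside the interval. Zfp36l1 was higher in Il13-positive naïve cells (1.25, 1.17 to 1.33) and lower in Il13-positive week 2 ta-activated cells (0.621, 0.460 to 0.844), and it was higher in Csf2-positive cells in 4 of 5 libraries, each with the interval above 1. Il9 could be split in 3 libraries, and after thinning no member had an interval off 1 in any of them. Without thinning, cells were not matched for depth, and positive and negative cells may differ in it. In that setting Zfp36 was lower in Il9-positive cells in each of the 3 libraries. Its ratios were 0.602 (0.449 to 0.811) in week 2 ta-non-activated cells and 0.710 (0.570 to 0.876) and 0.475 (0.386 to 0.579) in the ta-activated cells of weeks 2 and 3. Other members also left 1 without thinning, in the cultured libraries, such as Zc3h12a at 2.15 (1.76 to 2.61) in week 2 and 0.789 (0.688 to 0.902) in week 3. Ratios of cells in 1 library carry counting error only and have no test. The plot of cytokine-positive against cytokine-negative cells gives 4 of the members.

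**Figure D4:**
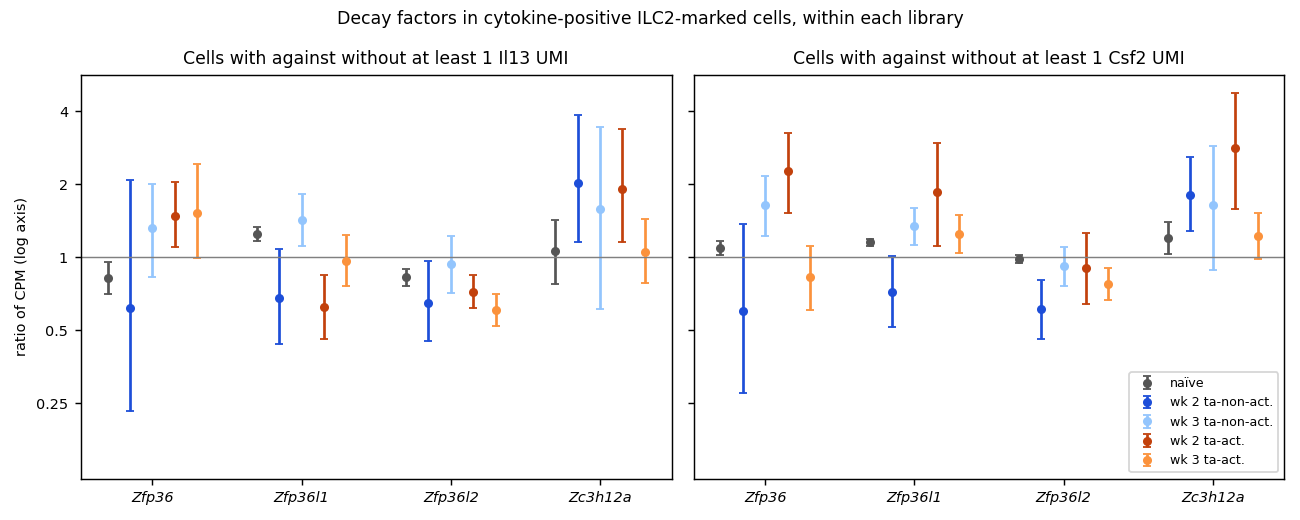
Ratio of CPM in cells with at least 1 Il13 UMI (left) or Csf2 UMI (right) to cells without one, for Zfp36, Zfp36l1, Zfp36l2 and Zc3h12a in ILC2-marked cells thinned to 2000 UMIs, on a log axis. Points are the 5 libraries and bars exact conditional 95% intervals. Zfp36l2 lies at or below 1 and Zc3h12a at or above 1 in each library.

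Cells were also split by Fos and by Jun, another immediate early gene, after the values had been seen, since the immediate early genes moved with the ZFP36 family between libraries. In naïve ILC2-marked cells, Zfp36 was at 486 CPM in Fos-positive and 198 CPM in Fos-negative cells (ratio 2.45, 2.27 to 2.66), and in week 3 ta-non-activated cells the ratio was 2.49 (1.85 to 3.42). Zfp36l1 differed less, with ratios of 1.37 (1.32 to 1.42) and 1.45 (1.24 to 1.69), and Zfp36l2 less again in naïve cells (1.22, 1.18 to 1.27). The split by Jun gave other ratios for Zfp36, at 1.81 (1.70 to 1.93) in naïve cells, 3.85 (1.40 to 9.27, on 7 and 23 UMIs) in week 2 and 0.921 (0.730 to 1.16) in week 3 ta-non-activated cells. For Zfp36l1 the Jun ratios were 1.23 (1.20 to 1.27) in naïve cells, 1.99 (1.21 to 3.13) in week 2 and 1.39 (1.22 to 1.59) in week 3 ta-non-activated cells. In ta-activated cells of weeks 2 and 3, Zfp36 had Jun ratios of 2.80 (1.63 to 4.51) and 1.44 (0.711 to 2.63). Zfp36l1 had 2.90 (1.51 to 5.08) and 0.913 (0.518 to 1.50) there. With 5 Fos-positive cells, the week 2 ta-non-activated library could not be split by Fos. At 2000 UMIs a cell, a cell without a Fos or Jun UMI may still hold the mRNA.

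**Figure D5:**
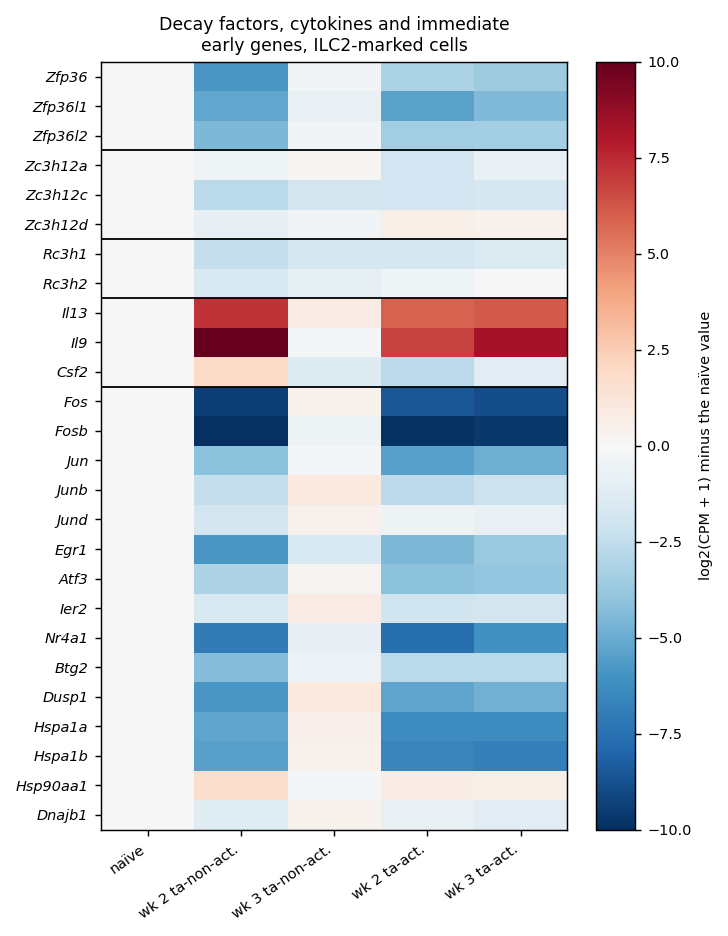
Level of the decay factors, the 3 cytokines and 15 immediate early and stress genes in ILC2-marked cells of each library, as log2(CPM + 1) minus the naïve value (colour scale from -10 to 10). Blue is below and red above the naïve library. The ZFP36 genes and the immediate early and stress genes except Hsp90aa1 are blue, some only faintly, in the week 2 ta-non-activated and both ta-activated columns. In week 3 ta-non-activated cells their colours are paler. There the median of the 15 immediate early and stress genes lies above naïve (log2 ratio of naïve over week 3 of -0.33).

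The other parts of the decay pathway were read from gene lists, and the shift of the naïve library with intron length bears on these counts too. For naïve over week 2 ta-non-activated cells, the shares of all genes to read them against are those above, 39.1% at least 2-fold higher and 20.1% lower with a median log2 ratio of 0.44. Of 25 deadenylation and decapping genes, 13 were at least 2-fold higher in naïve than in week 2 ta-non-activated cells and 1 was lower (median log2 ratio 1.28). They included Btg1 (1901 against 253 CPM) and Btg2 (664 against 32.2 CPM), adaptors that bring CCR4-NOT to mRNAs, its catalytic subunit gene Cnot6l (463 against 47.5 CPM) and the decapping helicase gene Ddx6 (213 against 71.2 CPM). Of 8 other mRNA-binding protein genes (Elavl1, Khsrp, Hnrnpd, Tia1, Tial1, Arid5a, Zc3h12b and Pabpc1), 2 were higher and 1 was lower (median -0.16). Elavl1, which encodes the stabiliser HuR, was at 117 against 160 CPM and Hnrnpd (AUF1) at 212 against 464 CPM. Of 7 regulators of the members, 4 were higher and none lower (median 1.93). Malt1 was at 275 against 33.5 CPM and Dusp1, a phosphatase that acts on p38, at 493 against 7.40 CPM. Mapkapk2, the p38-dependent kinase that phosphorylates tristetraprolin, was at 99.6 against 89.0 CPM, and Bcl10 at 73.4 against 76.4 CPM. Of 15 immediate early and stress genes, 14 were higher and 1 was lower (median 4.36). The lists overlap, so their counts are not separate observations. Btg2, Dusp1 and Fos, for example, are in this list and also among the deadenylation genes, the regulators and the AU-rich mRNAs, respectively.

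Known target mRNAs moved both ways. Of 16 other mRNAs with AU-rich elements, 9 were at least 2-fold higher and 5 lower in naïve than in week 2 ta-non-activated cells (median log2 ratio 1.35), against 39.1% and 20.1% of all genes. Il5, a type 2 cytokine, was at 170 against 1224 CPM and Ier3 at 6.05 against 190 CPM, while the chemokine gene Cxcl2 was at 751 against 65.4 CPM. Of 12 Regnase-1 or Roquin target mRNAs, 6 were higher and 4 lower (median 1.71). The one with the most UMIs, Icos, was at 604 against 350 CPM, under 2-fold. Next came Nfkbiz at 758 against 26.1 CPM, Rel at 282 against 45.7 CPM and Nfkbid at 376 against 18.5 CPM. The lower ones had fewer UMIs and are not named. For ta-activated against ta-non-activated libraries, edgeR called 0 genes of these lists at an adjusted p under 0.05. At an unadjusted p under 0.05, where 9.32% of all genes were higher and 7.45% lower after activation, the lists gave 1 higher and 2 lower among the other AU-rich mRNAs, 1 higher and 2 lower among the Regnase and Roquin targets, 1 lower among the deadenylation and decapping genes, 1 lower among the other binding proteins, none among the regulators, and 7 lower among the immediate early genes.

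Across the 5 libraries the pattern most like that of Zfp36l2, by Pearson's r of log2(CPM + 1) among 5736 genes with a mean of at least 20 CPM, was that of Rgs2, Ndel1 and Gmcl1, and 210 genes had an r over 0.95. The nearest to Zfp36l1 were Slc16a10, Stab2 and Zcchc11, with 303 genes over 0.95. These points share libraries, depth and the difference in naïve processing, and many genes follow the same order.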

How the data were processed

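Per the labels, single-cell RNA was measured with the 10x Genomics 3' v3.1 kit in 5 libraries. The values deposited by the authors are raw UMI counts for each gene and cell barcode, not normalized. The submitters' processing notes name Cell Ranger 3.0.2, Seurat 3 and GRCm38, while the naïve matrix header names Cell Ranger 6.0.0. Depth in the kept cells was 32395387 UMIs (naïve), 33230285 and 9394957 (ta-non-activated, weeks 2 and 3) and 57352180 and 61830293 (ta-activated, weeks 2 and 3).

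The 8 members and all gene lists were chosen with earlier results of these data known. The filter on barcodes (200 genes or more, mitochondrial share under 5%) was computed over the 27726 genes common to the matrices. Doublets were not called. A level (CPM) is a gene's summed UMIs per 1e6 UMIs of the same cells, with exact Poisson 95% intervals, and ratios have exact conditional intervals. Median log2 ratios of lists add 0.5 UMIs. A limit for 0 counts is 3 counts. For shares and for splits by cytokine, cells with at least 2000 UMIs were thinned to 2000, and shares have exact Clopper-Pearson intervals. Summed counts of ta-activated against ta-non-activated libraries were tested with edgeR 4.0.16 (filterByExpr, TMM, quasi-likelihood F test, Benjamini-Hochberg, threshold 0.05), on all genes, in R 4.3.3. The SE is the log2 fold change divided by the square root of F. The test was tested on simulated data for this comparison: with a biological coefficient of variation of 0.4 and 13134 genes, it recovered 35% of the genes changed by 2 on the log2 scale and 100% of those changed by 4. The coefficient estimated in the data was higher, at 0.513. The simulated libraries of a group were drawn from the same mean, unlike the ta-non-activated pair, so recovery in these data was not measured.

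Named genes were the members, the 3 cytokines, some or all of the 4 genes of each pathway list with the most UMIs. The 3 genes most like each of the 2 members with the highest mean were named too. Alternatives were DESeq2 1.42.0, no TMM, a replicate block for the week, no filter on low counts, all 5 libraries in 1 fit, all barcodes, a mitochondrial limit of 10%, ILC2-marked cells, cells without the T-lineage-marked ones, each library left out in turn, means over cells, and, for shares and splits, thinning to 1000 UMIs or none, all kept cells, and 2 cytokine UMIs. 3' UTRs, introns and sites came from GENCODE M21 on GRCm38, in which 27639 gene identifiers were found. Python 3.11.15 with numpy 2.4.6, scipy 1.17.1, pandas 2.3.3 and matplotlib 3.10.9 was used.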

Additional observations from a re-analysis of the deposited data

Results flagged for a closer look

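For 3 members and the 3 cytokines, ta-activated cells lay on opposite sides of ta-non-activated cells in weeks 2 and 3. In all kept cells, Zfp36 had log2 ratios of 2.87 in week 2 and -1.34 in week 3, a difference of 4.21. Zfp36l2 had 1.06 and -2.48, a difference of 3.54, and Zc3h12a had -1.56 and 0.59, a difference of -2.15. Il13 had -1.34 and 7.78 (difference -9.12) and Csf2 had -4.58 and 2.53 (difference -7.11). Il9 was at 0.00911 of its fresh level in week 2. In week 3 it had 0 UMIs in fresh and 342 CPM in cultured cells, so no log2 ratio is given. ILC2-marked cells had 0.00924 of the fresh Il9 in week 2, and 0 UMIs fresh and 344 CPM cultured in week 3. In ILC2-marked cells the differences were 6.25 for Zfp36 (2.90 and -3.35), 4.23 for Zfp36l2 (1.08 and -3.15), -6.63 for Il13 (-1.33 and 5.30) and -4.78 for Csf2 (-4.58 and 0.20). The sign change of Zc3h12a was absent there, with ratios below 0 in both weeks. These differences between weeks were not tested, since each week and arm is 1 library. Week 3 over week 2, the ratio between the cultured libraries was 0.739 for Zfp36, 1.03 for Zfp36l2 and 2.38 for Zc3h12a, and between the ta-non-activated libraries 13.7, 11.9 and 0.537. Of the latter, the week 2 library goes against its label on its immediate early genes.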

How the results depend on the processing

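The number of genes called moved from 0 to 1033 with DESeq2. Leaving out 1 library gave 0 to 1646 genes, with 1646 without the week 2 and 513 without the week 3 ta-non-activated library and 0 without either cultured one. The week is the time after tumour implantation, and no label ties the arms of a week to the same mice. The correlation of the week 2 minus week 3 differences between the arms was -0.06 over 12643 genes. With a replicate block 0 genes were called, and the estimate turned to 0.66 for Zfp36, 3.10 for Il13 and 0.79 for Il9. Leave-one-out estimates ranged from -1.03 to 2.43 for Zfp36, -2.07 to 0.11 for Zfp36l1, -2.43 to 0.83 for Zfp36l2, -1.29 to 0.15 for Zc3h12a, 0.72 to 1.87 for Zc3h12c, 1.86 to 2.93 for Zc3h12d, 0.33 to 0.71 for Rc3h1 and 0.70 to 1.19 for Rc3h2. They ranged from -1.43 to 7.70 for Il13, -6.05 to 16.24 for Il9, which has 0 UMIs in the fresh library then left, and -3.82 to 1.99 for Csf2. With week 3 as the only fresh library, the estimates were -1.03 for Zfp36, -2.43 for Zfp36l2, 1.87 for Zc3h12c and 2.93 for Zc3h12d. Il13 and Il9 had 7.70 and 16.24 in that fit. With week 2 as the only fresh library, the same genes, in that order, had 2.43, 0.83, 0.72, 1.86, -1.43 and -6.05. The lone library is then assumed to vary like the others. With ILC2-marked cells no member was called and Zfp36, Zfp36l1 and Zfp36l2 had -2.29, -3.34 and -2.40. Zc3h12a had -1.33, Zc3h12c 0.26, Zc3h12d 1.59, Rc3h1 0.22 and Rc3h2 0.92 in these cells. The causes were not tested. The other settings kept the sign of all 11 estimates, with none called. Of the 55 levels in CPM, 19 moved beyond their counting interval in ILC2-marked cells, 10 with all barcodes, 5 with the 10% mitochondrial limit, 20 without T-lineage-marked cells and 35 as means over cells. Of 65 shares, 61 moved without thinning and 53 at 1000 UMIs. Depth limits Zc3h12d most, with 5 UMIs in week 3 ta-non-activated cells.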
